A study of Drosophila melanogaster with 8 samples.

Results

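KDM5 binding was examined at 10 genes that encode nuclear receptors of Drosophila melanogaster: Hr3, Hr4, Hr38, Hr39, Hr78, Hr96, ftz-f1, Eip78C, ERR and Hnf4. The genes were taken by name, not by a binding value, from a family of 21 receptor genes among 13945 annotated protein-coding genes. They and the lists of genes set beside them were, however, chosen with earlier results of these data known. Shares of bound genes among them are therefore descriptions only. A gene counted as bound when it stood on the authors' list of genes that overlap KDM5 peaks, and the peaks over or nearest to each gene were then read from the peak list. KDM5 peaks were present at 7 of the 10 genes and absent from Hr3, Hr38 and ftz-f1, beside 38.5% of all protein-coding genes on that list.

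KDM5 is a histone H3 demethylase that also regulates transcription independently of its enzymatic activity. It was mapped in prothoracic gland cells of larvae at the wandering stage of the last instar, by Targeted DamID (TaDa). In this method a bacterial adenine methylase, Dam, is joined to the protein of interest and methylates GATC sites in its vicinity. The prothoracic gland makes the steroid hormone ecdysone, which triggers molting and metamorphosis. The groups were Dam:KDM5 (UAS-LT3-dam-kdm5) and Dam alone (UAS-LT3-dam), with 4 samples of 100 larvae each, and both carried tub-Gal80[ts] and spok-Gal4, so that the transgene was driven in the prothoracic gland. Eggs were laid over 24 h, and the animals then spent 5 days at 18°C and 2 days at 29°C, the temperature that inactivates Gal80[ts]. Whole larvae were homogenized, so the restriction to the gland rests on the driver, and KDM5 came from a transgene. The labelled tissue could not be checked against marker genes, since binding data measure no RNA. The files used here hold 1 averaged profile of both groups, with no value per sample. No replicate error, depth or test is therefore given below.

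Nuclear receptors are transcription factors that bind DNA through a pair of zinc fingers and, in many cases, respond to a small lipophilic ligand. In insects the ecdysone receptor, a dimer of EcR and Ultraspiracle (usp), switches on a cascade of further receptors whose ordered appearance times molts and metamorphosis. Hr3, Hr4, Hr39, Hr78, Eip78C and ftz-f1 belong to or act along this cascade, whereas ERR, Hnf4 and Hr96 are best known as regulators of metabolism, and Hr38 can pair with Ultraspiracle in place of EcR.

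The bound receptor genes carried scores around the middle of the whole list, with ERR as the high end. The binding score is the authors' value of a peak relative to Dam alone, and its log base is not stated, so it ranks peaks and gives no fold. On the authors' list, where a gene takes the score of its highest peak, ERR had 8.32, Hnf4 6.00 and Hr39 5.30. Hr96 followed with 5.25, Eip78C with 4.91, Hr4 with 4.38 and Hr78 with 3.72. The median of the 7 genes was 5.25, and 5 of them lay above 4.75, the median of all listed protein-coding genes. Among 5810 listed genes ERR ranked 170, Hnf4 1622 and Hr78 4060. Of all protein-coding genes 38.5% were on the list, a smaller share than 7 of 10, and with 1 averaged profile and 10 genes no test was made of that difference.

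**Figure D1:**
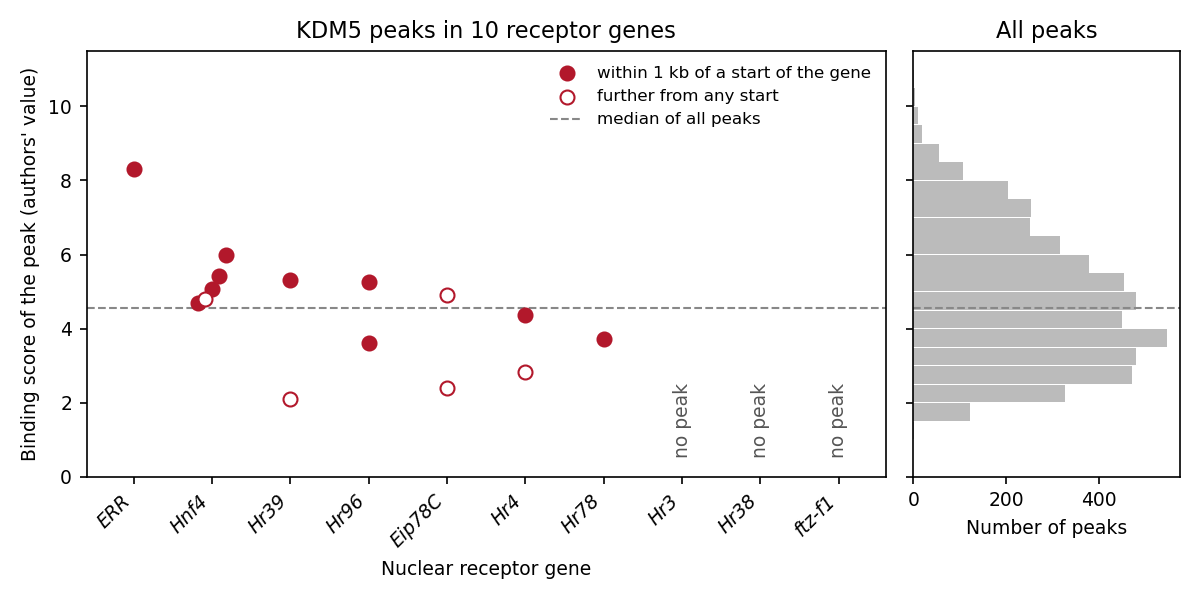
Binding scores (authors' value, linear axis) of all 15 KDM5 peaks that overlap the 10 receptor genes, one point per peak, beside a histogram of all 4931 peaks. Filled points lie within 1 kb of an annotated start of the gene, open points further away, and the dashed line is the median of all peaks, 4.55. ERR stands alone at 8.32, all 5 Hnf4 peaks lie above the line, and Hr3, Hr38 and ftz-f1 have no peak.

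Peaks near starts carried most of the higher scores. The 7 genes held 15 peaks, from 2.10 to 8.32 with a median of 4.79, and 9 of the 15 exceeded 4.55, the median of all 4931 peaks. The 10 peaks within 1 kb of a start of their receptor gene scored 3.62 to 8.32 with a median of 5.16. The 5 peaks further inside the genes scored 2.10 to 4.91 with a median of 2.83. Over the whole peak list the medians were 4.70 for 4032 peaks within 1 kb of a protein-coding start and 3.94 for the other 899. Every one of the 15 peaks also appeared under its receptor's name in the authors' gene table, with the same score.

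Among the metabolic regulators, ERR, the estrogen-related receptor that turns larval metabolism towards glycolysis and growth, had the highest-scoring peak of the 10 genes. The peak (chr3L:8185523-8187886, dm6, 2364 bp, FDR 1.19e-13) ranked 120 of 4931 by score. It covered both annotated starts of ERR, of the transcripts ERR-RA and ERR-RB. Only 1149 bp of the peak lay in ERR, as 574 bp of 5′ UTR, 552 bp of intron and 23 bp of coding sequence. The other 1215 bp lay upstream of the gene, with 1030 bp of them in Atg18a, an autophagy gene on the opposite strand that the authors' list gives the same score. The outermost starts of the genes are 185 bp apart and lie on the same GATC fragment of 1219 bp, so the score cannot be divided between them. Peak edges are set by GATC throughout, since each of the 4931 peaks began and ended at such a site.

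Hnf4, a fatty acid-responsive receptor that promotes lipid breakdown and mitochondrial gene expression in the fly, had the most peaks of the 10 genes. Its 5 peaks (chr2L:8689909-8709636 from the first base to the last, minus strand) scored between 4.69 and 6.00, all above the median of the peak list. The first, 1840 bp with a score of 4.69, lay at the starts of Hnf4-RA and Hnf4-RE and held 1126 bp of 5′ UTR. The next peak, at 5.06, was wholly intronic and ended 825 bp upstream of the start of Hnf4-RD. The highest, at 6.00, began 79 bp downstream of that start and held 869 bp of 5′ UTR and 109 bp of coding sequence. The last, at 5.42, lay 331 bp downstream of the start of Hnf4-RB. Binding was thus found at 4 of the 5 annotated starts of Hnf4, within 1 kb, and the start of Hnf4-RF lay 1522 bp from a peak. Together the peaks covered 35.8% of the gene, against a median of 33.9% for listed protein-coding genes. That median was taken over genes of all lengths and was not matched to the 22386 bp of Hnf4. In the other bound receptor genes of at least 10 kb, peaks covered 23.1% of Hr39, 10.4% of Hr4 and 2.87% of Eip78C. Of the protein-coding genes of at least 10 kb, 21.9% held 2 or more peaks and 1.82% held 5 or more. The remaining peak, at 4.79, was the one most removed from an annotated start, 2768 bp upstream of Hnf4-RF and wholly in an intron. Its central 300 bases (chr2L:8695504-8695803, dm6, minus strand) are shown with the GATC sites, which border the measured fragments, in capitals.
Hnf4 intron: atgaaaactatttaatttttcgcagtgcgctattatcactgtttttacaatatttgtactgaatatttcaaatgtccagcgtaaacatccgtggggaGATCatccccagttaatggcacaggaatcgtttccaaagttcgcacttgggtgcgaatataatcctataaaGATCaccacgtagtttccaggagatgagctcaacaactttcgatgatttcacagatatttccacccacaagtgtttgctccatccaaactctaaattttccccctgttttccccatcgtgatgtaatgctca
The 2 sites divide this stretch into 3 parts, and the whole peak spanned 4 fragments.

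Hr96, a receptor of xenobiotic responses and of cholesterol and triglyceride balance, carried a peak over its only start and another in its coding exons. The first (chr3R:25023462-25025811, 2350 bp) scored 5.25 and the second (chr3R:25026198-25027172, 975 bp) 3.62, and the FDR of both was 1.31e-20. Only 577 bp of the first peak lay in Hr96. It also held the whole of EMC6, a subunit of the membrane protein complex of the endoplasmic reticulum, over 545 bp, and 1021 bp of beta4GalT7, a galactosyltransferase. The outer starts of EMC6 and Hr96 are 217 bp apart on opposite strands and on the same GATC fragment of 1309 bp, and the peak's centre lay nearest to the start of EMC6. The second peak was not shared. It began 963 bp downstream of the start, and 842 of its 975 bp were coding sequence of Hr96.

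**Figure D2:**
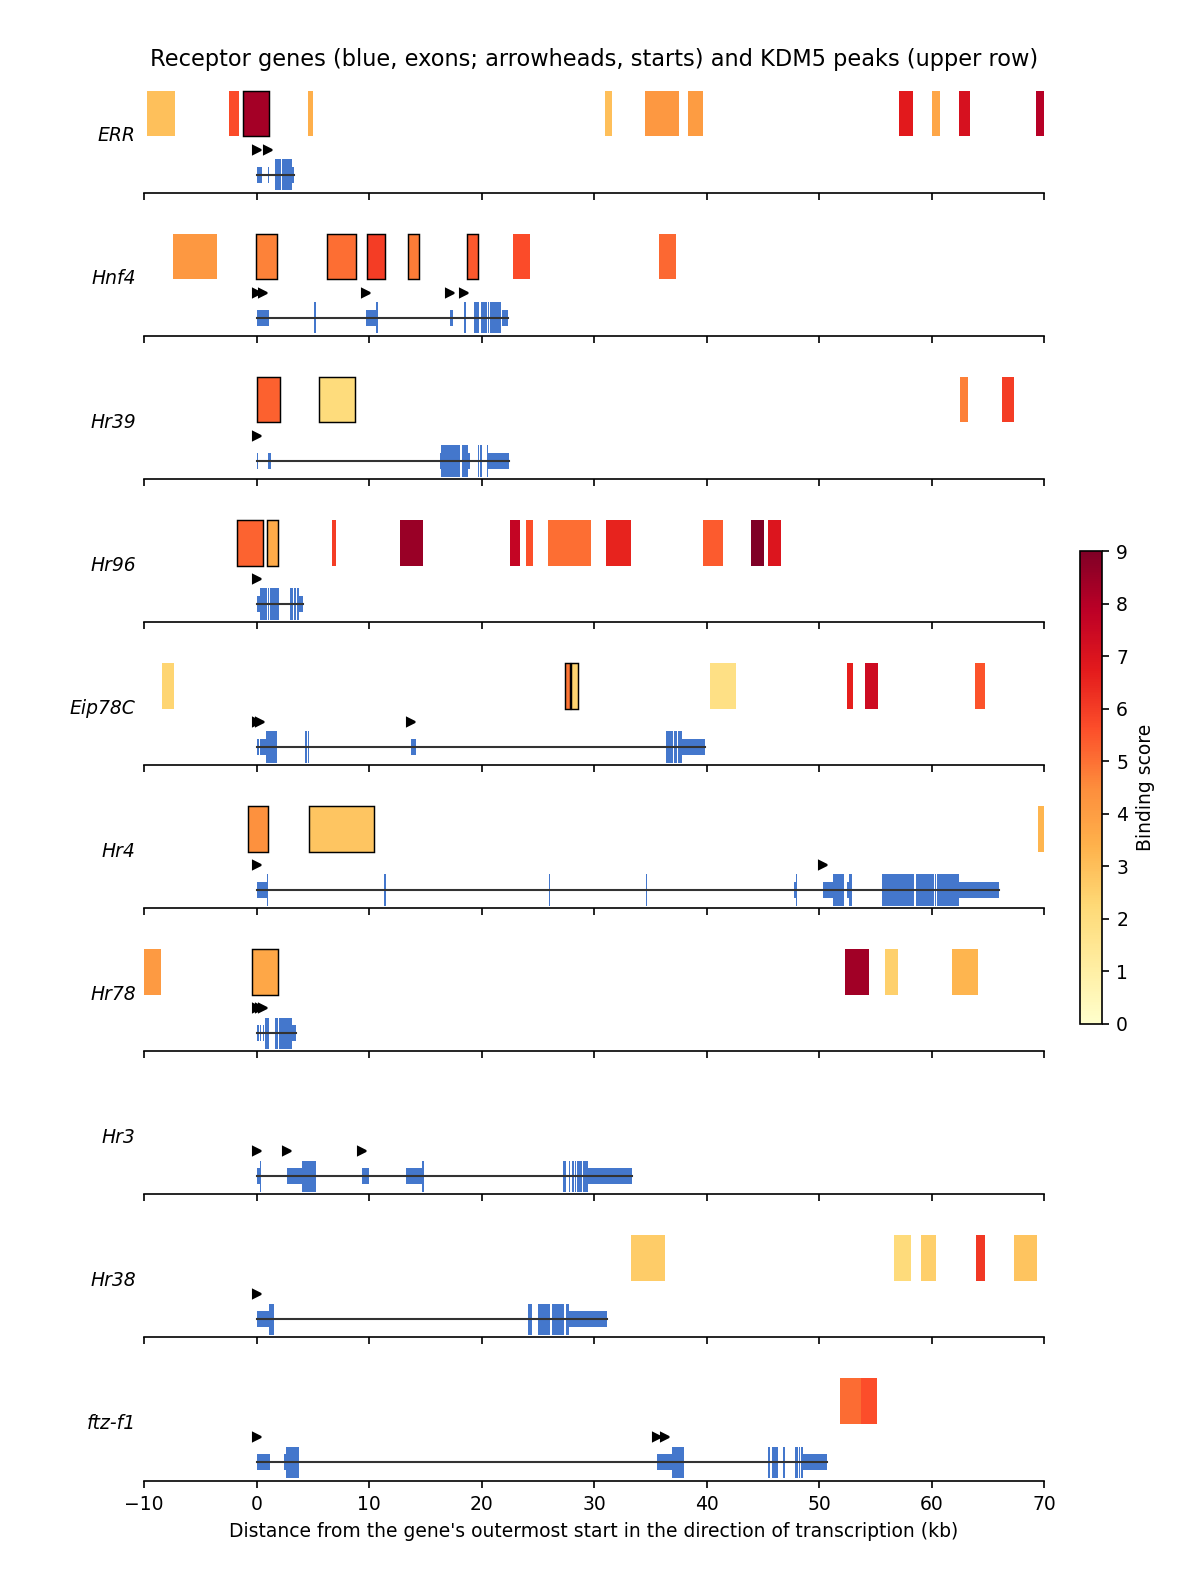
Maps of the 10 receptor genes, each aligned at its outermost start and drawn in the direction of transcription (x axis, kb). Blue boxes are exons (taller for coding sequence), arrowheads are annotated starts, and coloured boxes are KDM5 peaks shaded by score, outlined in black where they overlap the gene. Hnf4 carries 5 peaks along its length, Eip78C carries its peaks in an intron only, the other bound genes carry a peak at or close to their outermost start, and the bodies of Hr3, Hr38 and ftz-f1 are free of peaks.

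Among the receptors of the ecdysone cascade, Hr4, Hr39 and Hr78 were bound at or close to their outermost starts. Hr4 in the prothoracic gland restrains ecdysone synthesis and so helps to set the time of metamorphosis. Its peak of 1790 bp (chrX:1941208-1942997) scored 4.38 and covered the start that 7 of its 9 transcripts share, with 925 bp of 5′ UTR. The upstream end of that peak reached 329 bp into the 3′ part of CG3587, which takes its own score of 4.38 from it. The second start of Hr4, 50360 bp further in, used by Hr4-RE and Hr4-RF, lay 19072 bp from the nearest peak. Binding at Hr4 was therefore recorded at the upstream start and not at the internal one.

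A second Hr4 peak lay in an intron (chrX:1946612-1952406). It was wide, at 5795 bp over 8 fragments, and low, with a score of 2.83. Part of it is shown because it holds the single match in the 15 receptor peaks to TCAAGGTCA, an extended half-site to which monomeric receptors such as ftz-f1 and Hr39 bind. Such a match is a description of the letters and not a site of occupancy. The stretch around it (chrX:1948868-1948938, dm6, minus strand) has the match in capitals.
Hr4 intron: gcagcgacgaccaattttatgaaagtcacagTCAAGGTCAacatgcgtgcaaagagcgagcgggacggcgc
All KDM5 peaks together held 76 matches to this motif on either strand, or 0.092 per 10 kb. In the receptor peaks the rate was 0.334 per 10 kb, which rests on this 1 match.

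Hr39, a relative of ftz-f1 that can occupy the same sites with opposite effect, showed a sharp difference between its peaks. The first (chr2L:21237295-21239313, 2019 bp) scored 5.30 and lay over 411 bp of 5′ UTR and 1608 bp of intron. The second (chr2L:21242819-21245977, 3159 bp) scored 2.10 and was wholly intronic, 5569 bp downstream of the start. It ranked 4756 of 4931 by score. The higher peak had the weaker FDR, 0.00497 against 7.23e-05, and of the 1773 peaks that scored at least as high only 8 had an FDR as high or higher. With peaks limited to an FDR of at most 0.001, Hr39 kept its peak of 2.10 alone. The single start of Hr39, shared by its 4 transcripts, was just outside the first peak, which began 45 bp downstream. The start lay on a GATC fragment of 136 bp that was not part of the peak. The 150 bases before the start (chr2L:21237100-21237249, dm6, plus strand) are shown with GATC and GAGAG in capitals, GATC being the upstream border of that fragment.
Hr39 upstream: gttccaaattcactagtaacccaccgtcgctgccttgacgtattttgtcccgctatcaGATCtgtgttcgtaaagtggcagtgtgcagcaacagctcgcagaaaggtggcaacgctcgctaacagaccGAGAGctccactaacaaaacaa
No base of this stretch lay in a peak.

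Hr78, a receptor needed for the response to ecdysone at the onset of metamorphosis, had a peak over all 3 of its starts. The peak (chr3L:21495539-21497856, 2318 bp, FDR 0.000286) scored 3.72, the lowest score of the bound receptors and, as at Hr4, under the median of all peaks. It covered 56.3% of the gene. It held 631 bp of coding sequence, 327 bp of 5′ UTR and 998 bp of intron. The 3 starts lay on 1 GATC fragment of 1136 bp. The peak also touched 308 bp at the end of Glg1, a Golgi glycoprotein gene whose own start was 9682 bp away and whose score, 4.11, came from another peak.

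Eip78C, an ecdysone-induced receptor related to Eip75B, was bound only within an intron. Its peaks, of 445 bp at a score of 4.91 (chr3L:21254023-21254467) and of 698 bp at 2.41 (chr3L:21254523-21255220), were neighbours. The first began 27414 bp from the outermost start and 13676 bp downstream of the start of Eip78C-RB. No start of the gene had a peak within 1 kb, and the shortest distance from a start to any peak was 7358 bp. The peaks covered 2.87% of the gene, the least of the bound receptors. By position of the peak centre, the protein-coding start nearest to both was that of CG43218, so Eip78C was the receptor gene whose call depended on counting peaks anywhere in the gene. The central 300 bases of the higher peak (chr3L:21254096-21254395, dm6, plus strand) are shown, with GATC in capitals.
Eip78C intron: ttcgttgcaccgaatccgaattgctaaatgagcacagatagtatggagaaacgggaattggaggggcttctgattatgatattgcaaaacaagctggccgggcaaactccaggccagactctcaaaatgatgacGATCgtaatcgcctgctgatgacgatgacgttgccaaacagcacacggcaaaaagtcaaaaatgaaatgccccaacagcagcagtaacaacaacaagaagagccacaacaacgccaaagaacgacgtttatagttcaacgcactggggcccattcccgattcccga
The stretch lies wholly in the intron and in the peak.

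Most of the bound receptor genes were bound near a start. A peak within 1 kb of a start was present in 6 of the 10 genes, against 39.9% of all protein-coding genes. Of listed protein-coding genes 90.0% had one, and of the 7 listed receptors 6, with Eip78C as the exception. The 10 genes have 24 distinct starts, of which 9 lay in a peak and 12 within 1 kb of one. Of all starts of protein-coding genes, 19.0% lay in a peak and 39.8% within 1 kb of one. Hnf4 and Hr4 had starts of both kinds, within and beyond 1 kb. In the other genes all starts lay on one side of that limit.

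**Figure D3:**
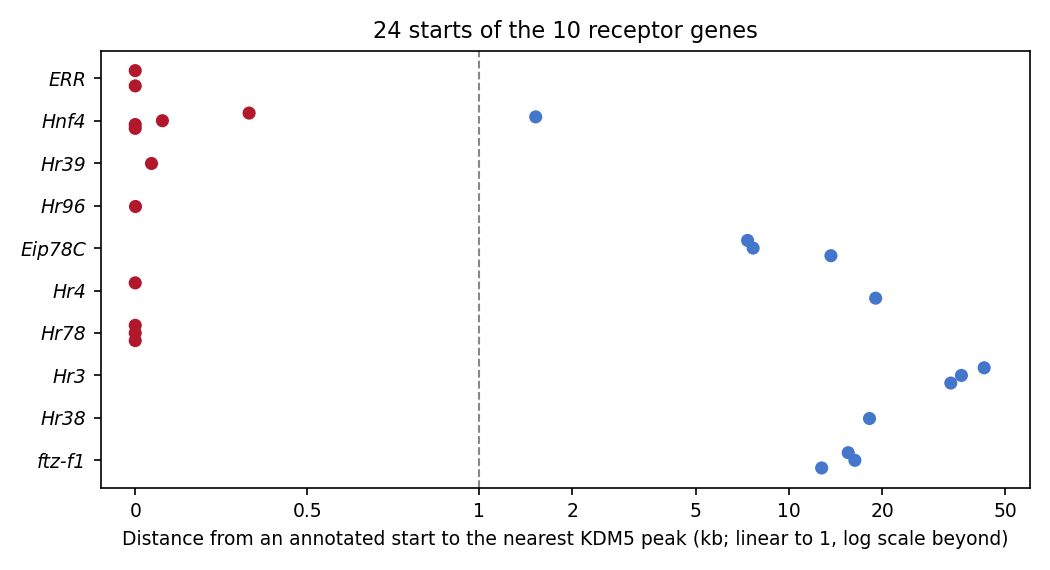
Distance from each of the 24 annotated starts of the 10 receptor genes to the nearest KDM5 peak (x axis in kb, linear up to 1 and on a log scale beyond), one point per start. Red points lie within 1 kb, which the dashed line marks, and blue points further away; 12 starts fall in each class. Hnf4 and Hr4 have starts in both classes.

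The receptors without a peak included ftz-f1, the fly relative of mammalian steroidogenic factor and a competence factor for the prepupal response to ecdysone, which the gland needs for its steroidogenic enzymes. No peak overlapped its 50703 bp (chr3L:18750607-18801309, minus strand). A peak lay 1205 bp beyond the 3′ end of the gene (chr3L:18747577-18749402, score 5.08, FDR 1.14e-11), over the autophagy gene Atg3 and over Nufip. The starts of ftz-f1 were 12766, 15554 and 16342 bp from the nearest peak. Upstream, the next peak scored 3.90 and lay over CG14073. The peak-free stretch around ftz-f1 was 64.7 kb long. Of the 8495 protein-coding genes without a peak that lay between neighbouring peaks, 50.7% were in a stretch at least as long. A stretch of that length was thus common among unbound genes. The 150 bases before the start of ftz-f1-RC and ftz-f1-RD (chr3L:18765745-18765894, dm6, minus strand) are shown as an example of a receptor start without a peak, with GAGAG, the core recognized by GAGA factor, in capitals.
ftz-f1 upstream: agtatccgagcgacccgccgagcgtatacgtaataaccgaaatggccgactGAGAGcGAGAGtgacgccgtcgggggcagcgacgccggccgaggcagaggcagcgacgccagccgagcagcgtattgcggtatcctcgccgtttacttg
The stretch has a GC content of 64.0% and 2 matches.

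Hr38, the fly member of the NR4A group, was likewise free of peaks over its 31127 bp (chr2L:20683462-20714588, minus strand). Its nearest peak was low, with a score of 2.61, and lay 2139 bp beyond the 3′ end over Cen and IKKepsilon. The single start of Hr38 was 18143 bp from the nearest peak, which lay upstream over Fs(2)Ket and TM9SF2 and scored 5.27. The peak-free stretch measured 51.4 kb, and 56.2% of the same 8495 genes lay in one as long or longer. The 150 bases before the start (chr2L:20714589-20714738, dm6, minus strand) are shown for comparison with ftz-f1, with CTCTC, the reverse complement of GAGAG, in capitals.
Hr38 upstream: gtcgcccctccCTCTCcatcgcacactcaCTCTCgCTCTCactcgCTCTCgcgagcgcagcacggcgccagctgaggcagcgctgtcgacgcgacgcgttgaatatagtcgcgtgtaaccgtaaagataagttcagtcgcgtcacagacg
This stretch has 4 matches and a GC content of 61.3%, close to that before ftz-f1.

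DamID can see only where GATC occurs, so these sites were counted at bound and unbound receptor genes. Within 1 kb of a start, protein-coding genes had a median of 6 GATC sites. The start of Hr38 had 2, those of ftz-f1 had 3, 3 and 6, and those of Hr3 had 12, 1 and 3. Starts of bound genes had between 1, at Eip78C-RB, and 14, at Hnf4-RD. Per kb of gene body, GATC was less dense in ftz-f1, at 1.99 sites, than in Hr38, at 3.34, and Hr3 had 2.07. All 3 were under the median of 3.88 for protein-coding genes. So were bound Hr39 at 2.23, Hr4 at 2.45, Eip78C at 2.81, Hr78 at 3.16 and Hnf4 at 3.44. Only ERR, at 3.93, and Hr96, at 4.62, were above it. The part of GATC density in the absence of peaks was not tested.

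Motifs were counted as a description of the letters, on both strands, in windows of 300 bp, running from 250 bp before an annotated start through the first 50 bp after it. AGGTCA, the half-site of many receptors, was present at 1 of the 24 receptor starts, that of ERR-RB, and at 5.68% of all 19607 protein-coding starts. AAGGTCA and TCAAGGTCA, which contain AGGTCA, were at none of the 24, and at 2.12% and 0.168% of all starts. In the central 300 bp of peaks the shares were 9.11%, 3.59% and 0.284%. Over the 29.9 kb of receptor peaks AGGTCA came to 2.00 sites per 10 kb, against 3.08 in all peaks. At starts these counts were near the shares over all genes.

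GAGAG and TATCGATA, the latter bound by the promoter factor DREF, were added to the motif list after the data had been seen. GAGAG was present at 14 of the 24 starts, against 33.1% of all starts. These starts belonged to 8 of the 10 genes. No share over all genes is given for that gene count, and a gene with more starts has more windows to match. The exceptions were ERR and Hr96, the short genes with divergent neighbours. Receptor peaks held 27.0 GAGAG sites per 10 kb and all peaks 18.1, overlapping matches counted. The excess was uneven. Of the 81 sites, the wide intronic Hr4 peak held 23, the first Hnf4 peak 16 and the second Hr39 peak 13. Each of the other receptor peaks held between 0 and 8. The unbound genes had it too, with 12 matches, overlapping ones counted, at the start of ftz-f1-RC, 2 of which lie in the stretch printed above, and 4 at that of Hr38. TATCGATA was absent from all 24 windows, although the Hr4 peak at the outermost start held 2 matches, and it was present in 7.98% of all windows at starts. GATC itself was in 9 of the 24 windows, against 45.5% of all. GAGAG was thus found at starts of bound and unbound receptor genes alike.

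The share of listed genes differed between classes of gene length. The receptor genes ran from 3311 bp for ERR to 66017 bp for Hr4, whereas the median protein-coding gene had 2166 bp. The 3 short genes, ERR, Hr78 and Hr96, fell in the class of 2 to 5 kb and were all listed, against 46.0% of that class. In the class of 20 to 40 kb 3 of 5 were listed, against 43.7%, and in the class of 40 kb or longer 1 of 2, against 42.1%. Of genes of at least 10 kb, 47.4% were listed, and of the receptors of that length 4 of 7. These counts are too small to set the receptors apart from their classes.

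**Figure D4:**
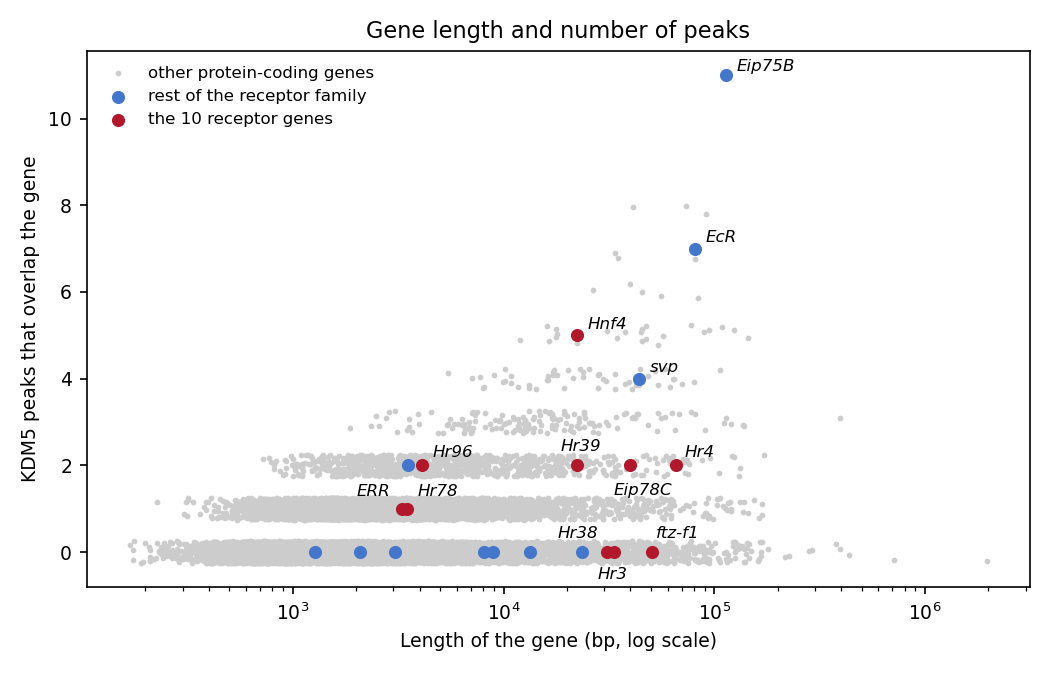
Number of KDM5 peaks that overlap a gene (y axis) against gene length (x axis, bp on a log scale) for all 13945 protein-coding genes. Grey points, spread slightly in y so that they can be seen, are other genes, red points the 10 receptor genes and blue points the 11 other receptor genes. Hnf4, at 22386 bp, carries 5 peaks, while Hr38, Hr3 and ftz-f1, all longer than Hnf4, carry none.

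Hr3, a receptor of the ROR group that switches on ftz-f1 and represses early ecdysone genes, lay furthest from any peak among the 10 genes. No peak overlapped its 33354 bp (chromosome arm 2R, 10203995 to 10237348, minus strand), and its nearest peak was 33356 bp upstream of its outermost start. That peak, over CAP, scored 2.97 with an FDR of 0.00215. On the other side the next peak lay 74177 bp beyond the 3′ end. Among protein-coding genes 13.3% were as far or further from a peak. The stretch without peaks was 140.9 kb and held 16 protein-coding genes whole, Hr3 among them. A stretch as long or longer held 30.4% of the 8495 genes without a peak that lay between neighbouring peaks. From the outermost start inwards, the 3 starts of Hr3 had 12, 1 and 3 GATC sites within 1 kb.

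Outside the genes themselves, the number of peaks within 50 kb of the outermost start was 2 for Hr3 and Hr39, 4 for Hr4, Hr38, Hr78, ftz-f1 and Eip78C and 5 for Hnf4. ERR had 7 and Hr96 had 9, against a median of 5 for protein-coding genes. Long genes such as Hr4 and ftz-f1 leave less of that window outside the gene, and the counts were not adjusted for this. Bound Hr39 thus had as few neighbouring peaks as unbound Hr3.

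In the rest of the family 4 of 11 receptor genes were listed, near the 38.5% of all protein-coding genes, which brought the family to 11 of 21. The ecdysone receptor gene EcR scored 9.01 with 7 peaks and its partner usp 2.54 with 2. Both usp peaks also overlapped Actn, and by position of the peak centre the nearest protein-coding start was that of Actn. Eip75B, which counteracts Hr3, scored 7.27 with 11 peaks, and svp, a receptor of the COUP-TF group, scored 4.79 with 4 peaks, none of them within 1 kb of a start. Hr51, Hr83, tll, dsf, kni, knrl and eg were not listed. In the family of 21, only Eip75B and EcR held more peaks than Hnf4, and only EcR scored above ERR.

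Genes for partners of the receptors were listed in 8 of 10 cases. Without EcR, usp and Eip75B, which are counted above, 5 of 7 were listed, beside 38.5% of all protein-coding genes. The gene srl, the fly PGC-1 coactivator, which works with ERR in mammals, scored 8.05, close to ERR. Its peak also overlapped CG31525. Coactivator gene tai scored 7.18 with 6 peaks and the corepressor gene Smr 5.99, while Alien and rig scored 3.86 and 2.83. The 2 partners without a peak had both been put on the list for their link to ftz-f1, so that link is no result. They were mbf1, a coactivator of the ftz-f1 protein, 1631 bp from a peak, and Blimp-1, which represses the ftz-f1 gene, 5261 bp from a peak. The body of mbf1 held only 2 GATC sites, or 0.82 per kb, against a median of 3.88 for protein-coding genes.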

How the data were processed

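TaDa profiles were made from 4 Dam:KDM5 and 4 Dam alone samples. Per the study's methods, the authors aligned reads to dm6, used damidseq_pipeline, averaged the replicates and called peaks with find_peaks (fdr=0.01, min_quant=0.9), and peaks2genes assigned genes. The sources used here give no versions of these tools. The deposited binding score gives each peak's value against Dam alone. Its log base is not stated, nor whether it averages the peak or takes its maximum. In all 5822 rows of the authors' gene ID table the score was the highest of the gene's peaks. Depth per sample is unknown here, and the profiles themselves were not analysed here.

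Positions count from 1 in dm6. Genes and starts came from Ensembl release 115 and sequences from the RefSeq release 6 genome. Of 5815 listed IDs 5799 matched by ID, 11 by symbol and 5 not at all. A peak belonged to a gene it overlapped by at least 1 bp, and a start was near a peak within 1 kb. The members and lists were chosen with earlier results of these data known. All 10 receptor genes, the 11 other receptor genes and the listed partners were named. So were the protein-coding genes that share, or have the start nearest to, a peak in the 10 genes. Non-coding genes under those peaks, such as mir-9374 at Hr39 and asRNA:CR43933 at Hr78, were not described. Alternatives varied the threshold, the overlap, the window and the score per gene. Overlap counting was tested on simulated data (Python 3.11.15, pandas 2.3.3, numpy 2.4.6).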

Additional observations from a re-analysis of the deposited data

How the results depend on the processing

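Between 5 and 7 of the 10 receptor genes stayed bound, beside 20.8% to 39.9% of all protein-coding genes under the same settings. That share was 39.9% with peaks within 1 kb of a start, 33.2% with an FDR of at most 0.001 and 29.0% by nearest start. It was 27.4% with at least 50% of the peak in the gene. Eip78C was lost when only peaks within 1 kb of a start counted, or when each peak went to the gene with the nearest start. ERR was lost when at least 50% of the peak had to lie in the gene, and Hr4 and Hr78 were lost when only peaks at or above the median score counted. With those peaks, the share of listed protein-coding genes fell from 38.5% to 20.8% and the peaks in receptor genes from 15 to 9. The median score of the bound receptors, 5.25, became 3.72 with the mean over a gene's peaks and 4.91 with an FDR of at most 0.001, where Hr39 kept 2.10. The number of genes with a peak near a start went from 6 to 4 with those higher-scoring peaks and to 5 with the stricter FDR. No matching share over all genes is given for these counts. No paired analysis was possible because the files hold only the averaged profile, and no replicate could be left out. GATC spacing limits resolution, and neighbouring starts on 1 fragment cannot be told apart.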
